A study of Homo sapiens with 9 samples.

Results

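The genes described here are the receptors for the death ligand TRAIL and the first steps of death receptor signalling, in HaCaT keratinocytes that overexpress β-actin with or without a nuclear localization sequence. There are 10 genes of the 19775 with a probe set of their own on the array: the ligand TNFSF10, the receptors TNFRSF10A, TNFRSF10B, TNFRSF10C, TNFRSF10D and FAS, the adaptor FADD, the caspases CASP8 and CASP10, and the caspase inhibitor CFLAR. All probe sets annotated to these genes were taken, which gave 45 of 54613, and 2 of them, shared between TNFRSF10C and LOC254896, were left out. The group was chosen by a measured value, the low TNFRSF10D signal of WT-actin against parental cells, so member values in WT-actin against parental cells are given as a description, with no test.

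HaCaT is a spontaneously immortalized line of human epidermal keratinocytes. RNA was measured on 9 Affymetrix U133 Plus 2.0 arrays, 3 for each of 3 lines. Parental cells were untransfected HaCaT cells. WT-actin cells stably carried wild type β-actin fused to GFP, and NLS-actin cells carried the same kind of fusion with a nuclear localization sequence, which makes actin accumulate in the nucleus. Both actin lines were transfected with linearized plasmid, selected with G418 and kept as a GFP-positive population, with 1 line for each construct and no line on the arrays that carried GFP or drug resistance alone. Effects of the construct, of GFP and of selection therefore cannot be told apart from each other in any comparison with parental cells. Whether the 3 arrays of a line came from separate cultures is not given in the sources used here, so that p values measure the spread between these arrays only.

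TRAIL is a membrane-bound member of the TNF family that can trigger apoptosis. It binds the signalling receptors DR4 (TNFRSF10A) and DR5 (TNFRSF10B), whose cytoplasmic death domains recruit the adaptor FADD and the initiator caspases 8 and 10. The decoy receptors DcR1 (TNFRSF10C) and DcR2 (TNFRSF10D) bind the same ligand without passing on a complete death signal, since the first has no cytoplasmic domain and the second a truncated death domain, and c-FLIP (CFLAR) competes with caspase 8 at the receptor complex. Keratinocytes are known to express TRAIL and its receptors.

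Signals were MAS5 intensities on a linear scale, and the trimmed mean of every array lay between 500.04 and 500.06. The brightest probe set on average stood for each gene, and differences are given on the log2 scale, where 1 is a doubling. The median signal of an array was between 29.67 and 43.26. In each line 1 array stood apart from the others (replicate 2 of parental, replicate 1 of WT-actin and replicate 2 of NLS-actin cells), all 3 in a shared direction. The differences of TNFSF10, which was highest on them, are given with and without them. All 6 measured keratinocyte markers, KRT5, KRT14, CDH1, DSP, LAMB3 and SFN, lay between the 96.4 and 99.9 percentiles of mean level, and KRT17 and TP63 had no probe set of their own symbol. Of the other cell types, leukocyte markers lay between the 1.7 and 54.3 percentiles, endothelial markers between 31.2 and 49.1, fibroblast markers between 20.3 and 77.8 (COL1A1) and melanocyte markers between 18.2 and 90.9 (MITF). Array values were of whole cultures, in which fewer cells of a type and less RNA per cell cannot be told apart.

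Of the 10 genes, TNFRSF10D, the decoy receptor DcR2, had the largest difference from the parental line. Its signal was 8.83-fold lower in WT-actin cells and 1.91-fold higher in NLS-actin cells than in the parental line, while the signalling receptors, the adaptor and the caspases of the same pathway differed by at most 1.43-fold in either actin line (CASP8 in WT-actin cells, brightest probe sets). No member passed an adjusted p of 0.05 in NLS-actin against parental cells (limma, Benjamini-Hochberg adjustment over all genes), a comparison in which 0.131% of all genes did, and 1 member had an unadjusted p under 0.05, where 6.44% of all genes did. The median difference of the 10 genes was -0.059, against -0.005 for all genes, and 4 of the 10 were higher. Among the members above the median level, the spread within lines was largest for TRAIL itself.

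**Figure D1:**
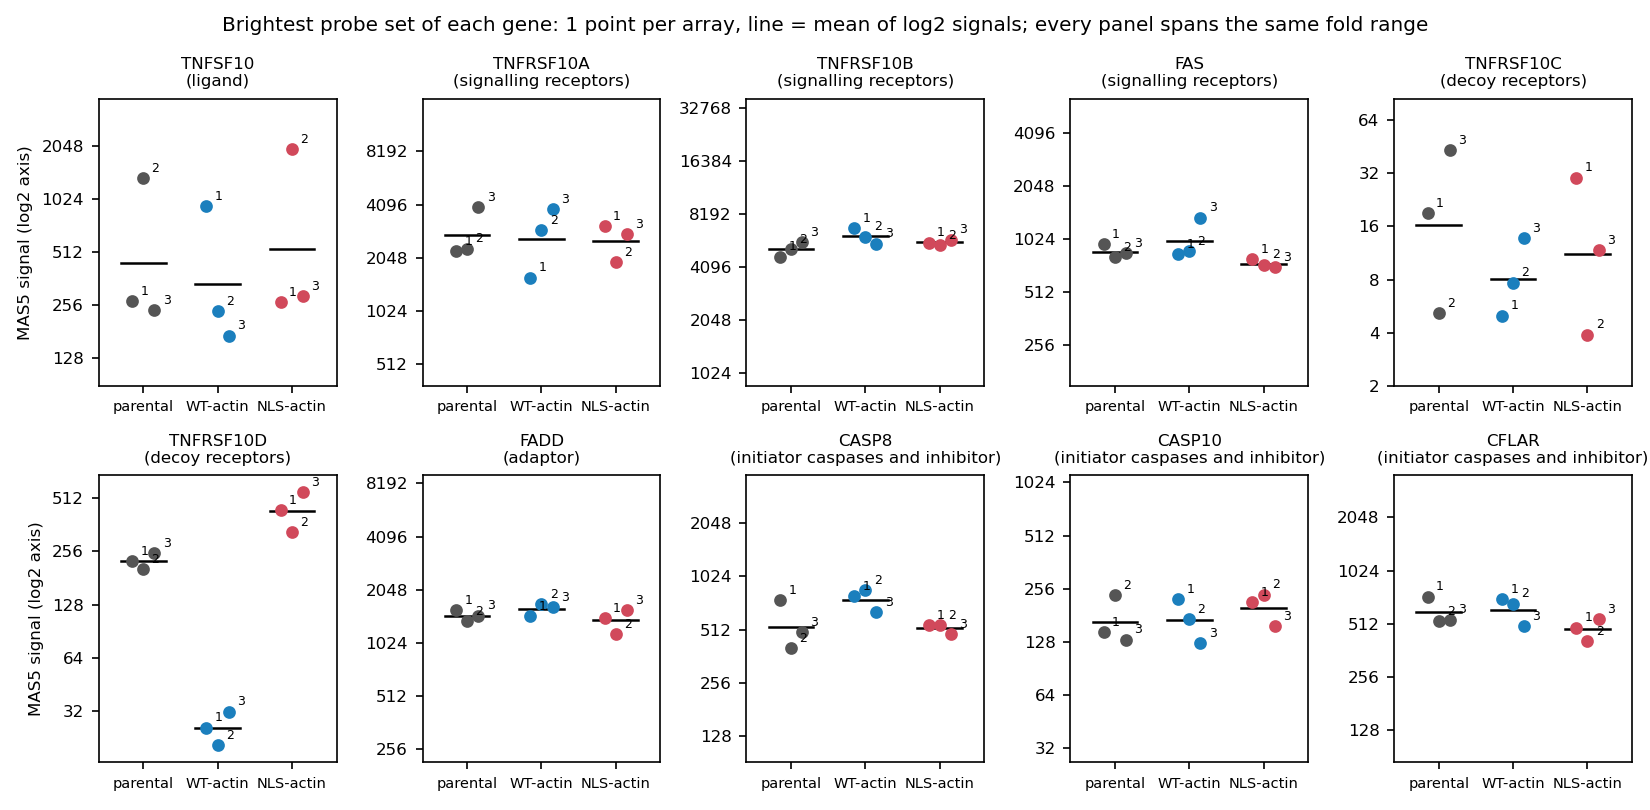
MAS5 signal (log2 axis) of the brightest probe set of each gene on the 9 arrays, with 1 numbered point per array and a line at the mean of the 3 log2 signals of a cell line. The WT-actin points of TNFRSF10D lie between 20.4 and 31.7, below all parental points, and its NLS-actin points lie between 329 and 552, above them, whereas TNFSF10 shows 1 high array in each line.

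The ligand TNFSF10 varied more between arrays of a line than between lines. The 250 bases before its annotated start are shown because the ligand varied more between arrays of a line than any other member above the median level and because this stretch holds the core of an interferon-stimulated response element (ISRE), a DNA element of genes that interferon induces, TRAIL among them. The sequence is that of RefSeq on the minus strand of chr3:172523431-172523680 (GRCh38.p14), 5′ to 3′, and the capitals mark a match on the opposite strand to the ISRE core, which was searched as GAAA, any 2 bases and GAAA. The match begins 187 bases before the start.
TNFSF10: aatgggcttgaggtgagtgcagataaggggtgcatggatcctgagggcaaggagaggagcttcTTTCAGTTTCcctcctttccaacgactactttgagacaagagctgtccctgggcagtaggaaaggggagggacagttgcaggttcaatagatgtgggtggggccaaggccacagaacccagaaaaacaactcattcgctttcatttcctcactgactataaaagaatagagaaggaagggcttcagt

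Searched on both strands over the 250 bases before each start, the ISRE core was found in 3.02% of 35116 RefSeq promoters, and the TNFSF10 entry was the only one of the 12 entries of member genes that held it. The table had entries for TNFSF10, FAS, FADD, CASP8 and CFLAR, and not for CASP10 or the TNFRSF10 genes. The GC box GGGCGG, present in 42.6% of promoters, was in all 3 FAS entries, the FADD entry, 1 of 3 CASP8 entries and 2 of 4 CFLAR entries. The GAS element TTCNNNGAA, present in 6.57%, was in 1 CASP8 entry, and the CArG box, the element bound by SRF and present in 1.16%, was in none of the 12. These are matches of letters within a window and not evidence of binding.

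In parental cells the brightest TNFSF10 probe set (202687_s_at) gave 269, 1349 and 241 on replicates 1, 2 and 3. It gave 930, 237 and 172 in WT-actin cells and 266, 1962 and 287 in NLS-actin cells. A single array was high in each line, and the other 2 arrays of each line lay between 172 and 287. The same 3 arrays were the highest of their lines in the other 2 probe sets, which gave 1463, 952 and 1932 (202688_at) and 813, 847 and 1002 (214329_x_at) on those arrays, in the order parental, WT-actin and NLS-actin. For the brightest probe set those arrays exceeded the mean of the other 2 of their line by 2.40, 2.20 and 2.83 on the log2 scale. These are the 3 arrays that stood apart across the genome: 15.5% of all genes were highest on all of them and 2.97% exceeded the others by 2-fold or more in every line.

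Between lines, TNFSF10 differed by 0.26 ± 0.85 (SE) in NLS-actin against parental cells, with a 95% confidence interval from -1.60 to 2.11 (limma, adjusted p = 0.976). Against WT-actin cells the difference was 0.66, from -1.19 to 2.51 (limma, adjusted p = 0.891), and also 0.66 with the replicate number as a block over all 9 arrays (limma, adjusted p = 0.859). Both intervals hold differences of more than 2-fold in either direction, so that TRAIL levels were not resolved by 3 arrays a line. Without the 3 arrays the differences were 0.12 ± 0.26 and 0.45 ± 0.26 (limma, adjusted p = 0.941 and 0.613).

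**Figure D2:**
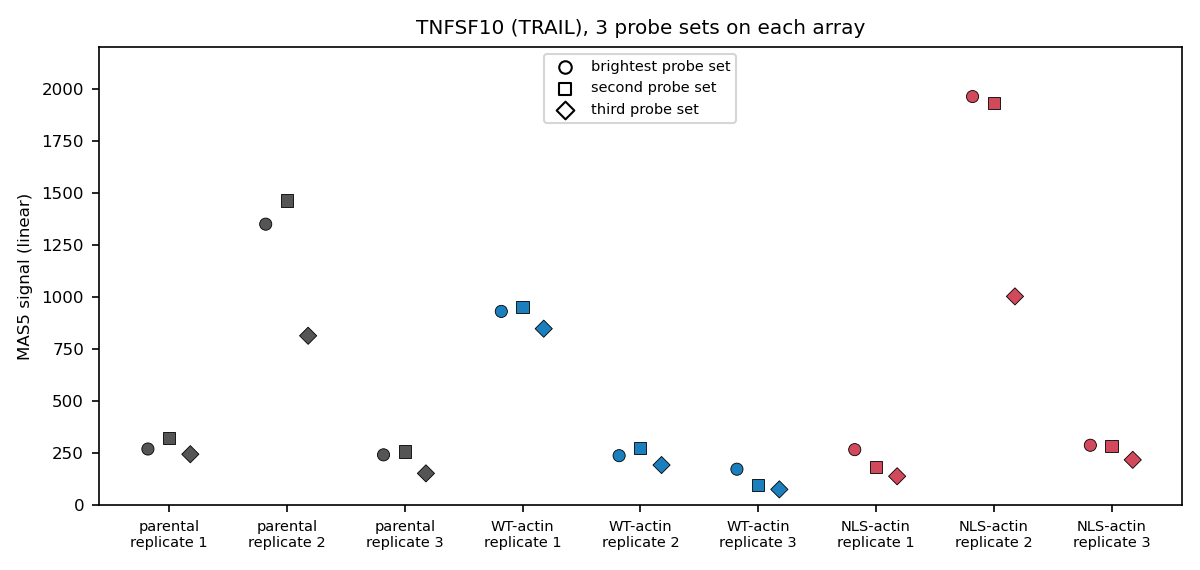
MAS5 signal (linear axis) of the 3 TNFSF10 probe sets on each array, coloured by line. In every probe set replicate 2 of parental, replicate 1 of WT-actin and replicate 2 of NLS-actin cells are the highest of their line, between 813 and 1962, and the other 6 arrays lie between 75.1 and 323.

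Few other members followed those arrays. CASP10 (205467_at) was also highest on all 3, by 0.76, 0.59 and 0.36 on the log2 scale, and FADD was lowest on all 3, by 0.15, 0.20 and 0.37. With the dim TNFRSF10C, 2 of the 10 brightest probe sets were lowest on these arrays, where 9.2% of all genes were, and 2 were highest, beside the 15.5% above. Of the other probe sets, both further ones of TNFRSF10A and the dim one of TNFRSF10D (210654_at) were lowest on all 3, and 1 of CASP10 and 2 of CFLAR were highest. The brightest TNFRSF10D probe set did not share the pattern, as WT-actin replicate 1 lay between the other 2 arrays of its line.

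The genes closest to TNFSF10 over the 9 arrays, chosen after their values were seen, were ZNF436-AS1, RAB11FIP4, CAPNS2, TMEM134 and C1RL, with Pearson r from 0.979 to 0.989 among 9887 genes above the median level. CAPNS2, a small calpain subunit, gave 2715, 2595 and 3787 on the 3 high arrays and between 520 and 898 on the others. The coefficients describe 9 arrays that share those 3.

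Both signalling receptors for TRAIL were among the brighter genes and similar in the 3 lines. DR5 (TNFRSF10B, 209295_at, 97.6 percentile of mean level) gave 4687, 5180 and 5651 in parental cells, 6808, 6088 and 5558 in WT-actin cells and 5630, 5461 and 5850 in NLS-actin cells. Of the NLS-actin arrays, 2 lay within the parental range and 1 above it. The difference between NLS-actin and parental cells was 0.13, with a 95% interval from -0.15 to 0.41 (limma, adjusted p = 0.898), and against WT-actin cells it was -0.12, from -0.40 to 0.16 (limma, adjusted p = 0.864). A 2-fold difference lies outside both intervals. The WT-actin value was 0.25 above parental for this probe set, but -0.49 and -0.62 for the next 2, 209294_x_at and 210405_x_at, so that probe sets of this gene disagreed in sign.

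DR4 (TNFRSF10A, 231775_at) gave 2243, 2310 and 3963 in parental cells, 1579, 2925 and 3873 in WT-actin cells and 3108, 1937 and 2793 in NLS-actin cells. The 3 lines overlapped fully. All 3 DR4 probe sets were slightly lower in both actin lines, by -0.10 to -0.49 in NLS-actin and -0.03 to -0.28 in WT-actin cells. The brightest had an interval from -0.79 to 0.59 in NLS-actin against parental cells (limma, adjusted p = 0.975), and its difference from WT-actin cells was -0.03 (limma, adjusted p = 0.992).

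FAS, the receptor for FAS ligand, which recruits FADD and caspase 8 in the same way, was lower in NLS-actin cells in most of its probe sets. Its brightest probe set (204780_s_at) gave 955, 807 and 850 in parental, 844, 872 and 1355 in WT-actin and 784, 734 and 708 in NLS-actin cells. Its second probe set (204781_s_at) gave 355, 356 and 331 in parental, 404, 429 and 402 in WT-actin and 236, 210 and 303 in NLS-actin cells. In both, every NLS-actin array lay below every array of the other 2 lines, and in the second every WT-actin array also lay above every parental array. The same separation of NLS-actin arrays was seen in 215719_x_at and 216252_x_at. In the dimmest probe set, 233820_at, NLS-actin arrays overlapped with both other lines, and every WT-actin array lay above every parental array.

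Compared with parental cells, the 4 brighter FAS probe sets differed by -0.23, -0.49, -0.42 and -0.33 in NLS-actin cells and the dimmest by 0.38. Compared with WT-actin cells, all 5 were lower, by -0.43, -0.74, -0.69, -0.64 and -0.56. The largest of these had an unadjusted p of 0.00328 and an adjusted p of 0.238 over all probe sets (limma), so that none passed the threshold. The gene-level difference was -0.23 (95% interval -0.66 to 0.20, limma adjusted p = 0.881) against parental and -0.43 (-0.86 to 0.00, limma adjusted p = 0.53) against WT-actin cells. Probe sets of 1 gene share its RNA and are not replicates. All 4 brighter probe sets have IDs ending in _s_at or _x_at, which mark probes that can bind more than a single transcript. With such probe sets set aside only 233820_at remained for FAS, and the difference from parental cells turned to 0.38 (limma, adjusted p = 0.919). The difference from WT-actin cells was -0.21 without WT-actin replicate 3, the array with the highest FAS signal.

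**Figure D3:**
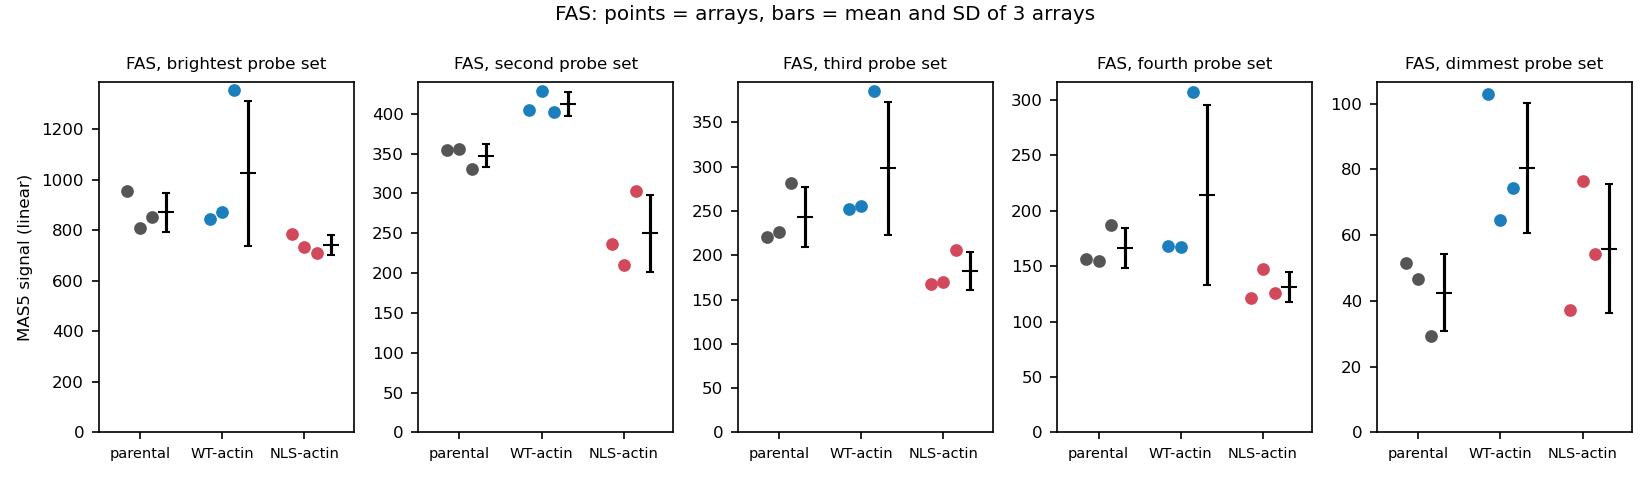
MAS5 signal (linear axes from 0) of the 5 FAS probe sets, from the brightest to the dimmest, with points for arrays and bars for the mean and SD of the 3 arrays of a line. NLS-actin points lie below all other points in the first 4 panels, at 708 to 784 against 807 to 1355 in the first, and overlap with parental points in the last.

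The decoy receptor TNFRSF10D (227345_at) gave 225, 203 and 251 in parental cells, 25.7, 20.4 and 31.7 in WT-actin cells and 440, 329 and 552 in NLS-actin cells, or 226 ± 23.9, 25.9 ± 5.67 and 440 ± 112 (mean ± SD, n = 3). The 3 lines did not overlap. On the WT-actin arrays the signal lay between the 43.1 and 49.3 percentiles of all probe sets, just below the array medians of 32.8 to 33.8, whereas it lay between the 66.6 and 69.9 percentiles on parental and between 71.6 and 78.3 on NLS-actin arrays. How far the WT-actin signal lay above background is unknown, since detection calls were not used here.

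The difference between WT-actin and parental cells, which chose the group, was -3.14 ± 0.30 (SE), and that between NLS-actin and WT-actin cells, which uses the same WT-actin arrays, was 4.08 ± 0.30, a 16.9-fold ratio. Both are descriptions. With the 25th percentile of all signals (8.08) added before log2, which damps low values, they were -2.79 and 3.70. NLS-actin exceeded parental cells by 0.93 ± 0.30, with a 95% interval from 0.27 to 1.60, and all 3 NLS-actin arrays lay above all 3 parental arrays, which are shared with the first comparison. Its unadjusted p was 0.00958 and its adjusted p 0.488 (limma), so that the higher level of NLS-actin cells did not pass the threshold.

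A second probe set of TNFRSF10D (210654_at) was dim, at the 22.2 percentile, and did not separate the lines. It gave 8.18, 1.42 and 21.2 in parental, 0.559, 8.24 and 5.59 in WT-actin and 20.4, 1.07 and 10.1 in NLS-actin cells. Its differences from parental cells were -1.09 and -0.06 in WT-actin and NLS-actin cells. Averaged over both probe sets, TNFRSF10D differed by -2.11 and 0.44, so that the size of the difference depends on the brighter probe set alone.

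DcR1 (TNFRSF10C) had 4 probe sets of its own, all dim, between the 8.54 and 36.6 percentiles. The brightest (234644_x_at) gave 19.1, 5.17 and 43.2 in parental, 5.0, 7.67 and 13.7 in WT-actin and 30.2, 3.90 and 11.7 in NLS-actin cells, with full overlap. The dimmest (206222_at) gave 0.937, 1.55 and 2.61, then 0.843, 0.564 and 1.90, and then 10.4, 3.48 and 8.97, and its NLS-actin arrays lay above all others. The 4 probe sets differed by -2.37 to 2.14 in NLS-actin against parental cells, with both signs, so that no direction for DcR1 could be read at these levels.

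In the RefSeq annotation of GRCh38.p14 the 4 TRAIL receptor genes follow each other as TNFRSF10B, TNFRSF10C, TNFRSF10D and TNFRSF10A, so that adjacent genes could be set beside TNFRSF10D. Of the 3 annotated genes on either side, those with a probe set were RHOBTB2, TNFRSF10A-DT and CHMP7, and they differed from parental cells by -0.27, -0.10 and -0.60 in WT-actin and by -0.18, 0.04 and -0.63 in NLS-actin cells. These values are small beside the -3.14 of TNFRSF10D in WT-actin cells. Of the next protein-coding genes, added after values were seen, EGR3, an early growth response transcription factor, was 36.3 ± 18.1, 25 ± 17.7 and 63.5 ± 23.8 in parental, WT-actin and NLS-actin cells (SD, n = 3). It thus had the same order of line means as TNFRSF10D, with differences from parental cells of -0.65 in WT-actin and 0.84 in NLS-actin cells, and 1.49 between the actin lines (limma, adjusted p = 0.877, 0.854 and 0.436). LOXL2, a lysyl oxidase that crosslinks collagen, was 953 ± 114, 735 ± 172 and 320 ± 159 in parental, WT-actin and NLS-actin cells (SD, n = 3). Its difference between NLS-actin and parental cells was -1.74 (limma, adjusted p = 0.154). R3HCC1 differed from parental cells by -0.03 and 0.01 in WT-actin and NLS-actin cells, and the dim PEBP4 by -0.50 and 0.39.

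The genes whose signal was most like that of TNFRSF10D over the 9 arrays were TOX4, UBR7, NDN, FGF13 and ZNF114, with Pearson r of 0.967, 0.966, 0.957, 0.956 and 0.946 among 9887 genes above the median level. NDN, which encodes the growth suppressor necdin, gave 1538, 1270 and 678 in parental cells, 22.1, 10.4 and 19.7 in WT-actin cells and 851, 1289 and 1157 in NLS-actin cells. ZNF114, a zinc finger gene, gave 918, 607 and 578, then 134, 137 and 136, and then 708, 451 and 822. In both, every WT-actin array lay below every other array, and NLS-actin and parental arrays overlapped. FGF13, a fibroblast growth factor homologous factor, gave 1367, 1110 and 1099 in parental, 557, 638 and 705 in WT-actin and 1954, 1423 and 1522 in NLS-actin cells, so that its 3 lines were apart in the same order as those of TNFRSF10D. TOX4 and UBR7 followed the order of the line means with a narrow range, between 1808 and 2696 for TOX4, and their parental and NLS-actin arrays overlapped. These coefficients describe arrays of 3 lines, and the selection was made for likeness.

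FADD, the adaptor that links the death domains of DR4, DR5 and FAS to the caspases, had 1 probe set (202535_at). It gave 1571, 1363 and 1464 in parental, 1454, 1700 and 1630 in WT-actin and 1418, 1154 and 1578 in NLS-actin cells, with overlap of all lines. The difference was -0.09 in NLS-actin against parental cells (limma, adjusted p = 0.947) and -0.21 against WT-actin cells, with an interval from -0.56 to 0.13 (limma, adjusted p = 0.781).

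CASP8, the main initiator caspase of these receptors, gave 752, 402 and 493 in parental, 789, 860 and 640 in WT-actin and 540, 544 and 482 in NLS-actin cells (213373_s_at). NLS-actin arrays lay below all WT-actin arrays but within the parental range. The difference from WT-actin cells was -0.54, with an interval from -1.05 to -0.03 (limma, adjusted p = 0.495), and that from parental cells was -0.02, from -0.54 to 0.49 (limma, adjusted p = 0.99). With the replicate number as a block over all 9 arrays, the difference from WT-actin cells stayed at -0.54. Its unadjusted p was 0.0404 without and 0.036 with this block (limma). Equal numbers did not pair WT-actin with NLS-actin arrays (residual correlations of -0.596, -0.401 and 0.16 over genes above the median level), so nothing is concluded from the blocked value. That difference was 0.10 when the CASP8 probe sets were averaged and 0.25 without those ending in _s_at or _x_at. A dim probe set of the same gene (207686_s_at, 41.2 percentile) went the other way, at 12.2, 2.71 and 14.7 in parental and 35.1, 29.4 and 19.8 in NLS-actin cells. Its difference of 1.80 made CASP8 the 1 member past the study's own thresholds (a fold above 2 with an unadjusted p under 0.05) in NLS-actin against parental cells, a rule that 6.41% of all genes met (limma, unadjusted p = 0.0323).

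CASP10, the other initiator caspase, gave 146, 236 and 132 in parental, 223, 173 and 126 in WT-actin and 215, 237 and 158 in NLS-actin cells (205467_at). The lines overlapped, and NLS-actin differed from parental cells by 0.27, from -0.42 to 0.97 (limma, adjusted p = 0.915). The other 3 probe sets were dim, between the 2.18 and 35.8 percentiles.

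CFLAR had 14 probe sets, of which 6 were dim. The brightest (209939_x_at) gave 730, 528 and 540 in parental, 708, 665 and 494 in WT-actin and 487, 407 and 545 in NLS-actin cells. Only NLS-actin replicate 3 reached the parental range, and the difference from parental cells was -0.31, from -0.79 to 0.16 (limma, adjusted p = 0.853). The second (210563_x_at) had all NLS-actin arrays below all parental arrays, at 286, 271 and 296 against 387, 403 and 305, while 214486_x_at had them above, at 88.8, 232 and 97.5 against 82.3, 82.5 and 56.1. In all, 3 of the 14 were higher in NLS-actin than in parental cells, and the differences ran from -1.21 to 0.80. CFLAR is spliced into long and short forms, and which probe set measures which form is not given in the sources used here.

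**Figure D4:**
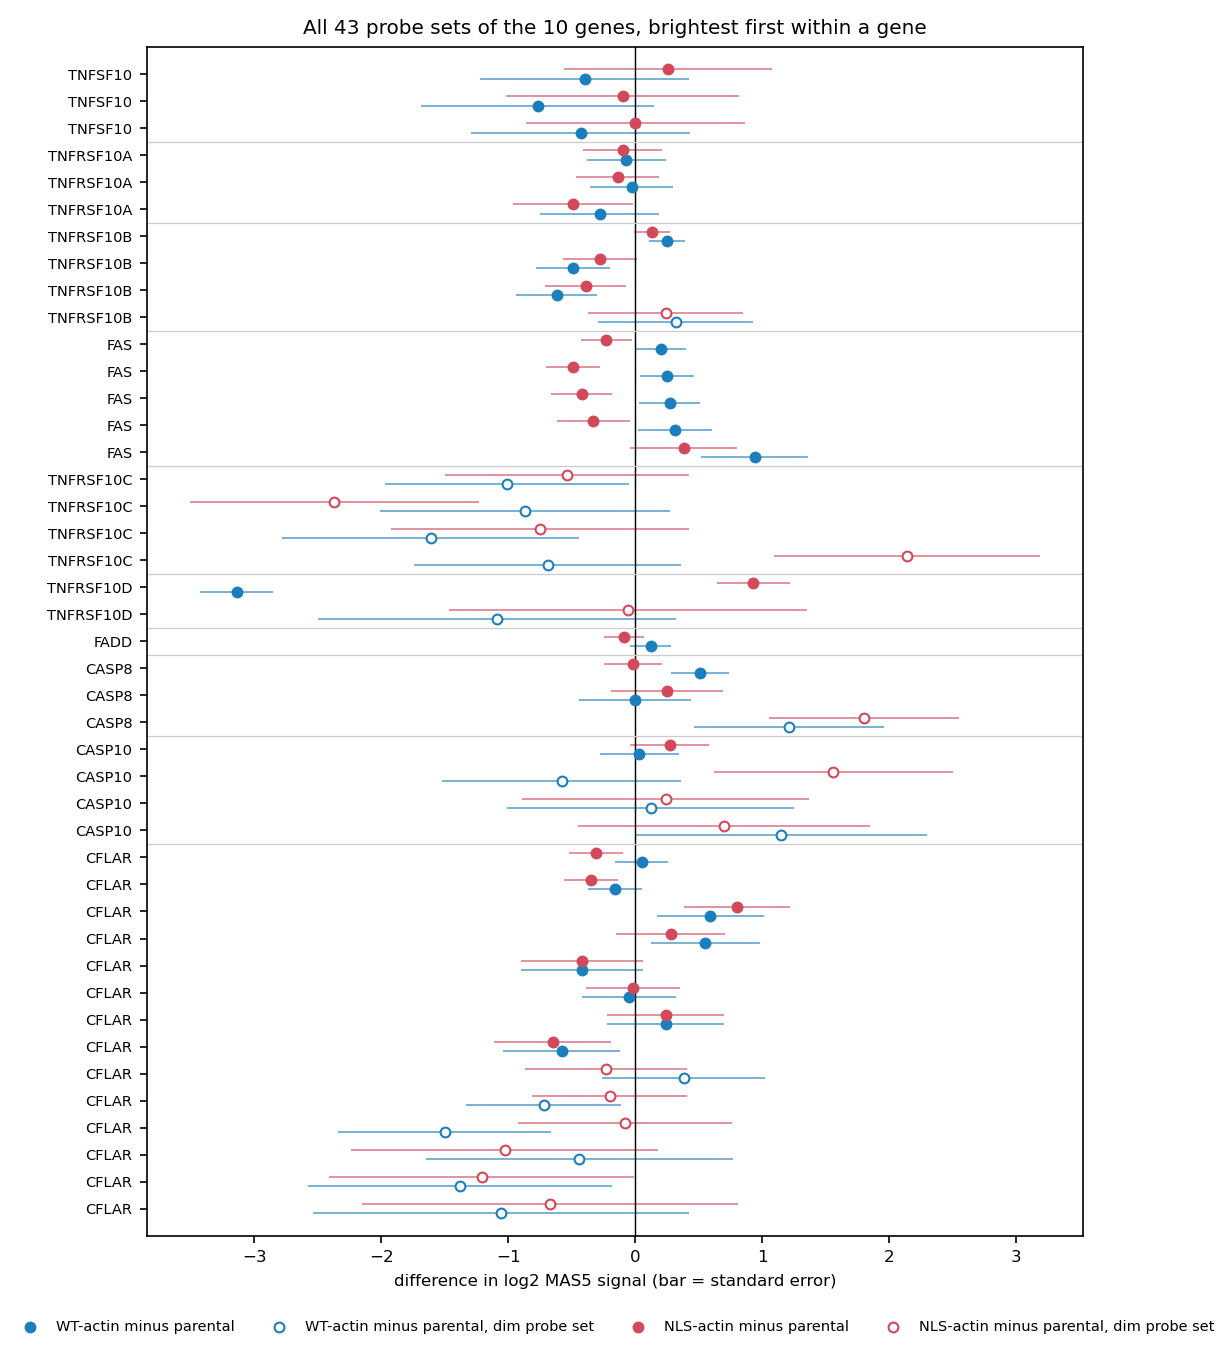
Difference in log2 MAS5 signal from parental cells for all 43 probe sets, WT-actin in blue and NLS-actin in red, with bars for the standard error of the fit and open symbols for the 16 dim probe sets. TNFRSF10D at -3.14 is the farthest point of any bright probe set, the FAS points of the 2 lines fall on opposite sides of 0 for 4 of 5 probe sets, and the open symbols spread widely in both directions.

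Counted over all 43 probe sets, 10 had NLS-actin arrays that did not overlap with parental arrays, where 13.2% of all probe sets did so. Of these 6 were lower (4 of FAS and 2 of CFLAR), where 8.23% of all probe sets were, and 4 were higher (TNFRSF10D and single probe sets of CASP8, CFLAR and TNFRSF10C), where 4.96% were. Taken by genes, 2 of 10 did not overlap, FAS lower and TNFRSF10D higher, beside 13.9% of all genes.

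The comparison of NLS-actin with WT-actin cells sets tagged actin with the nuclear localization sequence beside tagged actin without it, in 1 line each. TNFRSF10D is left out of the counts of calls, since the WT-actin arrays chose it. None of the other 9 members passed an adjusted p of 0.05, where 0.728% of all genes did. Among them 1, CASP8, had an unadjusted p under 0.05 (9.47% of all genes). Arrays did not overlap for 2 of these 9, FAS and CASP8, both lower, beside 13.9% of all genes. With the probe sets of TNFRSF10D set aside, 5 were lower without overlap, 4 of FAS and 1 of CASP8, where 5.23% of all probe sets were. The dim 206222_at of TNFRSF10C was higher without overlap. In either direction 12.1% of all probe sets did not overlap. Of the 9, the study's thresholds were met by TNFRSF10C and CASP10 (8.23% of all genes), through the dim probe sets 206222_at and 210955_at.

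In WT-actin against parental cells, the brightest probe sets of the 9 members other than TNFRSF10D differed by -1.01 (TNFRSF10C, dim) to 0.51 (CASP8). Among those above the median level, none was below -0.40, the value of TNFSF10. Other probe sets went lower. Of all 27 member probe sets above the median level, 13 were higher in WT-actin cells, and the lowest after TNFRSF10D was 202688_at of TNFSF10, at -0.77.

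The other genes of the pathway were taken from a list of 68, of which 59 were analysed here. None of the 59 passed an adjusted p of 0.05 in NLS-actin against parental, WT-actin against parental or NLS-actin against WT-actin cells (limma), where 0.131%, 0.167% and 0.728% of all genes did. At an unadjusted p under 0.05 there were 6 in NLS-actin against parental cells and 6 in NLS-actin against WT-actin cells, beside the shares of 6.44% and 9.47% of all genes given above. The median difference of the 59 was 0.00 in each, and 29 and 30 of them were higher.

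Among ligands and other death receptors, TNF gave 37.1, 33.2 and 55.7 in parental and 35.5, 10.5 and 11.3 in NLS-actin cells, a difference of -1.34 ± 0.61 (SE; limma, adjusted p = 0.766). EDA2R, a receptor for ectodysplasin, was dim, at 0.984, 0.402 and 0.83 in parental, 11.8, 8.68 and 11.3 in WT-actin and 0.998, 5.17 and 9.77 in NLS-actin cells. DR6 (TNFRSF21), a bright gene not named by the rule, lay at 4105 to 4867 in parental, 5536 to 7776 in WT-actin and 4222 to 4644 in NLS-actin cells. Its NLS-actin arrays all lay below the WT-actin arrays, by -0.55 (limma, adjusted p = 0.156).

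The soluble decoy osteoprotegerin (TNFRSF11B), which is secreted and also binds TRAIL, ran opposite to TNFRSF10D in WT-actin cells. It gave 117, 75.2 and 66 in parental, 746, 436 and 125 in WT-actin and 55.4, 175 and 72.3 in NLS-actin cells. All WT-actin arrays were above all parental arrays, by 2.04 on the log2 scale (limma, adjusted p = 0.422), and the NLS-actin arrays overlapped with both. NLS-actin was -1.95 ± 0.60 (SE) from WT-actin cells (limma, adjusted p = 0.237). WT-actin replicate 3, at 125, was far below the other 2 arrays of its line, and without it that difference was -2.68 with an adjusted p of 0.0465 (limma). That fit kept WT-actin replicate 1 (746) and NLS-actin replicate 2 (175), the highest of their lines and both among the arrays that stood apart.

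Among adaptors and kinases, RIPK3, the kinase of necroptosis, gave 46.4, 104 and 35.8 in parental, 107, 61.7 and 57.8 in WT-actin and 91.2, 171 and 94 in NLS-actin cells. NLS-actin differed from parental cells by 1.03 (limma, adjusted p = 0.768), and the arrays that stood apart were the highest of their lines. TRAF5, an adaptor of TNF receptors, gave 617, 581 and 529 in parental and 707, 945 and 728 in NLS-actin cells, without overlap (0.45, limma adjusted p = 0.705).

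Downstream of the caspases, BID, which caspase 8 cleaves to engage mitochondria, was lower in NLS-actin than in both other lines on every array. It gave 1985, 1658 and 1597 in parental, 2167, 1975 and 1681 in WT-actin and 1353, 1134 and 1286 in NLS-actin cells. The differences were -0.47 ± 0.16 from parental and -0.62 ± 0.16 (SE) from WT-actin cells (limma, adjusted p = 0.525 and 0.136). DFFA, the inhibitor of the caspase-activated DNase, differed by -0.18 from parental cells, and the IAP antagonists DIABLO and HTRA2 by 0.21 and -0.28 (limma, adjusted p = 0.861, 0.851 and 0.851).

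Of the regulators, IRF1, a transcription factor induced by interferon, was lower than in parental cells on every array of both actin lines, at 427, 674 and 461 in parental, 404, 254 and 305 in WT-actin and 236, 358 and 231 in NLS-actin cells. Within each line it was highest on the array that stood apart. The difference between NLS-actin and parental cells was -0.92 ± 0.27 (SE; limma, adjusted p = 0.391). RELA, the p65 subunit of NF-κB, lay at 3159 to 3795 in parental and 2691 to 3023 in NLS-actin cells, a difference of -0.27 (limma, adjusted p = 0.804). Neither passed the threshold.

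**Figure D5:**
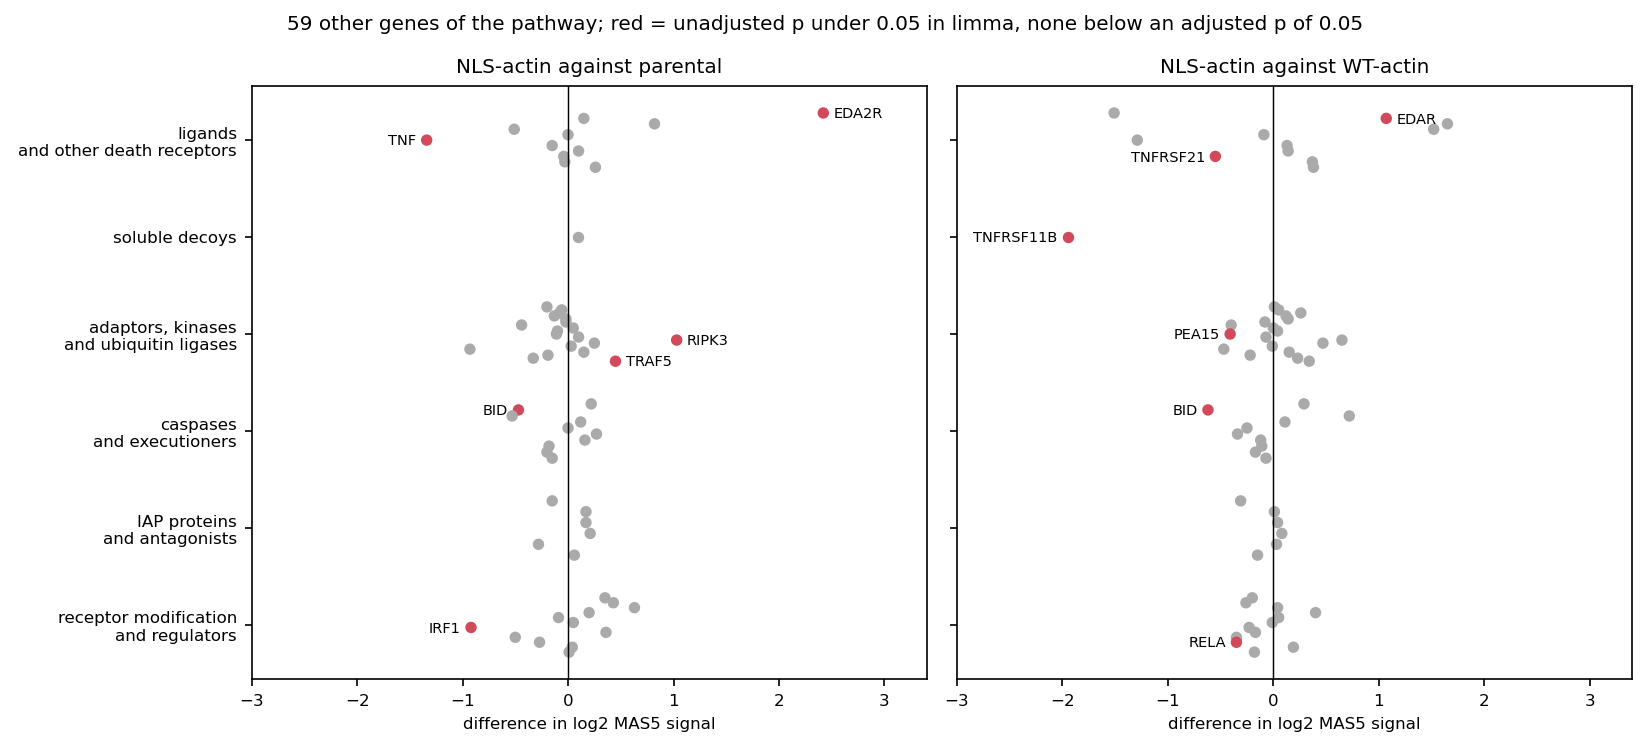
Difference in log2 MAS5 signal of the 59 other pathway genes by role, in NLS-actin against parental cells (left) and NLS-actin against WT-actin cells (right), with genes at an unadjusted limma p under 0.05 in red and named. Most points lie near 0, 6 are named in each panel, BID is named in both, and no gene passed an adjusted p of 0.05.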

How the data were processed

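RNA of 3 HaCaT lines (parental, WT-actin and NLS-actin) was measured on 9 U133 Plus 2.0 arrays, grouped by the sample titles. The authors amplified the RNA, scanned the arrays and deposited MAS5 signals, which are linear intensities. The MAS5 version and scaling target are not given in the sources used here, and detection calls and array images were not used, so that dim probe sets have no call against background. The number of arrays limits the precision.

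No offset was added before log2. After 62 control probe sets were left out, 41091 of 54613 probe sets had 1 gene symbol (1801 several and 11721 none listed), 41037 of them updated by Entrez identifier. Probe sets whose mean level was below the median of all probe sets (33.55) are called dim. Each of 19775 genes was represented by its brightest probe set. The lines were compared in 1 limma 3.58.1 fit over all 9 arrays (R 4.3.3) with an intensity trend of the variance, with Benjamini-Hochberg adjustment of p over all genes, or over all probe sets where stated, and a threshold of 0.05. The fit was run on simulated data with independent spread on every array. That leaves out the residual correlations between arrays given below, so nothing is concluded from it. With 3 arrays a line, the smallest p of an exact permutation test is 0.1. The paper gives Tukey's test for its data in general and, for the arrays, thresholds without a named test. Those thresholds (a fold above 2 with an unadjusted p under 0.05, in any probe set of a gene) were applied to the same fit. Python 3.11.15 with pandas 2.3.3 and matplotlib 3.10.9 wrote the tables and figures.

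The members, the pathway and marker lists and the tests were chosen with earlier results of these data known. The text names all members, 2 genes of each role of the pathway list with the smallest p in NLS-actin against parental cells, the 5 genes most like TNFRSF10D and the neighbours of the receptor genes. TNFRSF21, the protein-coding neighbours and the genes most like TNFSF10 were chosen after their values were seen. Promoter sequences and gene order are from RefSeq (GRCh38.p14). The alternatives were quantile normalization, an offset, a filter on dim probe sets, no variance trend, replicate blocks, a fit of the 2 lines compared, averaging of a gene's probe sets, exclusion of probe sets prone to cross-hybridization, Tukey's test, the study's thresholds and omission of arrays. Equal numbers were treated as pairs for parental with NLS-actin arrays, since residual correlations of equal numbers were 0.234, 0.79 and 0.416 over genes above the median level, although they were 0.0175, 0.166 and 0.0506 over all genes and what a number marks is not given. Unequal numbers gave -0.659 to 0.534, and parental replicates 1 and 3 were closer to an NLS-actin array of another number (0.336 and 0.534), so that the pairing is uncertain. They did not pair WT-actin with parental arrays (-0.0766, -0.355 and 0.515) or with NLS-actin arrays (-0.596, -0.401 and 0.16).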

Additional observations from a re-analysis of the deposited data

Results flagged for a closer look

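TNFRSF10D was higher than every parental array on all 3 NLS-actin arrays, by 0.93 on the log2 scale, and lower than every parental array on all 3 WT-actin arrays, by a log2 difference of -3.14. Lines with opposite directions against the same parental arrays are given for a closer look. The difference between the effects was not tested, because the WT-actin values had chosen the gene.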

How the results depend on the processing

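TNFRSF10D kept its direction under every alternative run in all 3 comparisons, from -3.30 to -2.11 in WT-actin against parental, 0.44 to 1.13 in NLS-actin against parental (limma, adjusted p from 0.316; 1.0 by Tukey's test) and 2.55 to 4.28 in NLS-actin against WT-actin cells. In both comparisons with WT-actin arrays the 1 member at an adjusted p under 0.05 was TNFRSF10D, which those arrays chose, so the counts are no test of it. They were 0 with averaged probe sets in both and 0 with Tukey's test in WT-actin against parental cells. The study's thresholds gave 3 members in NLS-actin against WT-actin cells, TNFRSF10D among them, where 8.23% of all genes met them. They gave 1 in NLS-actin against parental cells, where 6.41% of all genes did. The replicate block within parental and NLS-actin arrays left TNFRSF10D at 0.93 in NLS-actin against parental cells (limma, adjusted p = 0.401) and changed no member's call there at an adjusted p of 0.05. In comparisons with WT-actin arrays, this block set a fitted replicate 1 level against the mean of 3 WT-actin arrays. Those values measure another difference, so nothing is concluded from them, and only that of TNFSF10 is given below. With the block over all 9 arrays, no member's call at an adjusted p of 0.05 changed in any comparison. The filter on dim probe sets lowered members past the study's thresholds in NLS-actin against WT-actin cells from 3 to 1, which was TNFRSF10D. Genes called in NLS-actin against parental cells, 26 in the main fit, were 27 with the block within parental and NLS-actin arrays and 19 with the block over all 9 arrays. In NLS-actin against WT-actin cells they moved from 144 to 162 with the block over all 9 arrays. With the study's thresholds the members in NLS-actin against parental cells were 3 with quantile normalization, 2 without the variance trend and 0 with the filter or without cross-hybridizing probe sets. With 1 array left out, these counts in NLS-actin against parental cells ranged from 0 (parental replicate 2) to 2 (parental replicate 3, NLS-actin replicates 1 and 2). In NLS-actin against WT-actin cells they ranged from 1 (WT-actin replicate 2) to 4 (WT-actin replicate 3), each with TNFRSF10D counted, which the WT-actin arrays chose. The study's thresholds gave 4 of the 59 pathway genes in NLS-actin against parental cells (6.41% of all genes) and 4 in NLS-actin against WT-actin cells (8.23%). An adjusted p under 0.05 gave 0 in both, and with 1 array left out 0 to 1 in NLS-actin against WT-actin cells (TNFRSF11B, without WT-actin replicate 3). Members without a call changed sign as follows, and the cause was not tested. In NLS-actin against parental cells these were TNFSF10 (-0.10 without cross-hybridizing probe sets), FAS (0.38 likewise), CFLAR (0.28 likewise), TNFRSF10B (-0.08 with averaged probe sets) and CASP8 (0.08 with quantile normalization, 0.67 with the mean, 0.25 without cross-hybridizing probe sets). In NLS-actin against WT-actin cells these were TNFRSF10B (0.06 with the mean), CASP8 (0.10 with the mean, 0.25 without cross-hybridizing probe sets) and CFLAR (0.05 with the mean). The block within parental and NLS-actin arrays gave -0.20 for TNFSF10 there. That value measures the other difference described above and is not counted as a change of sign. With 1 array left out, NLS-actin against parental values ranged from -0.69 to 1.06 for TNFSF10, -0.24 to 0.17 for TNFRSF10A, -1.37 to 0.22 for TNFRSF10C, -0.19 to 0.03 for FADD and -0.23 to 0.23 for CASP8, and against WT-actin cells from -0.28 to 1.39 for TNFSF10, -0.39 to 0.25 for TNFRSF10A and -0.25 to 1.22 for TNFRSF10C. TNFRSF10C had no value with the filter on dim probe sets. Signals below the median level limit what can be said of TNFRSF10C and of the second probe set of TNFRSF10D.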
